A study of Mus musculus with 18 samples.

Results

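Angptl4, Acsl1, Cyp4a10 and Acot3 are 4 genes that fasting induces in mouse liver through the nuclear receptor PPAR-alpha, and their transcripts were measured in Cav1 knockout (KO) and wild-type (WT) mice. The genes were taken as a named list that was chosen with earlier results of these data known. Their p-values and counts are therefore not independent of that choice. The probes of the 4 genes were found by reading the number inside each probe name as a mouse NCBI gene ID. This gave 5 probes, 1 each for Angptl4, Acsl1 and Acot3 and 2 for Cyp4a10, out of 9807 probes of 8109 genes that could be named this way. Every gene name here rests on that reading.

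Total RNA was hybridised to 18 Illumina Mouse-6 V1 bead arrays, 3 KO and 3 WT in each of 3 settings. These were liver of Cav1 KO mice and of WT mice taken 24 h after food was withdrawn, adipose tissue of Cav1 KO mice and of WT mice taken 11 h after food was withdrawn, and embryonic fibroblasts (MEFs) of a primary line from Cav1 KO mice and from WT mice, collected 24 h after plating. The study compared KO with WT within each tissue. The labels give neither age, sex nor strain, nor how the Cav1 allele was made, and they name no fed animals, so the fasting response itself was not measured. Separate animals or cultures are not stated for the 3 arrays of a group, so the p-values cover only the variation among these samples, part of which may be technical.

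PPAR-alpha is a receptor for fatty acids. When fat stores are broken down in fasting, fatty acids reaching the liver activate it, and together with its partner RXR it binds paired AGGTCA-type sites and raises transcription of genes for fatty acid transport, activation and oxidation and for ketone production. Angptl4 encodes a secreted inhibitor of lipoprotein lipase and is itself induced by fasting in adipose tissue as well as in liver. Acsl1 encodes the long-chain acyl-CoA synthetase that activates fatty acids by joining them to coenzyme A. Cyp4a10 encodes a microsomal cytochrome P450 that hydroxylates the omega end of fatty acids. Acot3 encodes an acyl-CoA thioesterase of peroxisomes, which splits acyl-CoA back into free fatty acid and coenzyme A. Cav1 encodes caveolin-1, the coat protein of caveolae, which are small pits of the cell surface and especially dense on fat cells.

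Sequence around the start site is shown for Acsl1 and Acot3, the members with an entry in the RefSeq promoter table of the mouse build GRCm38.p6 (2 of 4). Each window holds 250 bases before and 50 bases after an annotated start, 5′ to 3′ on the gene's strand, and capitals mark a match to the core site AGGTCA on the opposite strand. They are shown because this element is the unit of the PPAR-alpha binding site. Acsl1 has 2 annotated starts, and which of them was used in these samples was not measured.
Acsl1, first start (chr8:46470787-46471086, plus strand): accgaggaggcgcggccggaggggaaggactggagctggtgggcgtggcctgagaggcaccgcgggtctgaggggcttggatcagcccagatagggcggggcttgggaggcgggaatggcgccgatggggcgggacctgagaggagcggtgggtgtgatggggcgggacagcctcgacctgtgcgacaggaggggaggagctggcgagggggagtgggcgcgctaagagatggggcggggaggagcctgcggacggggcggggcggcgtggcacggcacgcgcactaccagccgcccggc
Acsl1, second start (chr8:46490716-46491015, plus strand): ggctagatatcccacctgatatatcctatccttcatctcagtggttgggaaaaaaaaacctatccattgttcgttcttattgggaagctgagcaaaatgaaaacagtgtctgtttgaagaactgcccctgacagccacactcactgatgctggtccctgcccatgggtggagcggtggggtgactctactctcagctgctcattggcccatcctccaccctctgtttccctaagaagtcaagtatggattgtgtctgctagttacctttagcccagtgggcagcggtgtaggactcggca
Acot3 (chr12:84051894-84052193, plus strand): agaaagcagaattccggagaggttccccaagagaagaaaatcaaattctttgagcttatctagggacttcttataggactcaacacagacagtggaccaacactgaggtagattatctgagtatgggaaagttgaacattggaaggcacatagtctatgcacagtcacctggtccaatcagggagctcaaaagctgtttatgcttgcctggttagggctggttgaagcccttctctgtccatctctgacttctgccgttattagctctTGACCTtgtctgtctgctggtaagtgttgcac

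The first Acsl1 window had 74.0% G and C and 30 CG dinucleotides, against a median of 52.7% and 7 over all 32851 windows of the table. The second Acsl1 window had 50% and 4, and the Acot3 window 45.7% and 2. Both strands were searched for AGGTCANAGGTCA, a strict form of the PPAR response element, for its relaxed form AGGNCANAGGNCA and for the core site AGGTCA alone, which also forms both ends of the strict element. The shares of all windows that held them were 0.0396%, 0.381% and 16.3%. The Acot3 window held 1 core site, beginning at base 19 after the start, and the overlapping window of a second Acot3 start held the same one at base 12. Neither Acsl1 window held any of the 3. Other fasting and fatty acid genes were listed for comparison. Of the 150 listed genes, members included, 114 had a window, and windows on 1 chromosome were left out of their search. Outside the members, the relaxed element was found in the windows of Fabp1 and Apoc2, beginning at bases -67 and -122. Fabp1 encodes the liver fatty acid binding protein and Apoc2 the lipoprotein lipase activator. These matches describe letters in short windows and are not measured binding.

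The targeted gene was checked first. Its raw signal, which is the mean brightness of the beads of a probe, was 1939.9 to 3167.4 in KO and 25664.1 to 50304 in WT adipose tissue, and 788.7 to 1689.9 in KO and 9765.6 to 10821.2 in WT MEFs. In liver, where Cav1 was dim, it was 109.6 to 133.7 in KO and 158 to 186 in WT, a difference that did not pass the threshold (limma, adjusted p = 0.0609). Hepatocyte markers were bright in liver, where the 3 measured ones summed to 69187 to 78107 in KO and 66734 to 84006 in WT, against 350 to 1156 over the other tissues. Singly they did not move alike. KO minus WT in liver (log2) was -0.46 for Serpina1a, -0.19 for Apoa1 and 0.34 for Cps1. None passed the threshold (limma, adjusted p = 0.138, 0.112 and 0.290). Adipose tissue rests on 1 measured adipocyte marker, Fabp4, at 1441 to 2722.3 in KO and 1636.7 to 3291.3 in WT. The liver arrays detected 12076 to 13131 of 45917 probes, the adipose arrays 14877 to 16973 and the MEF arrays 13524 to 14733, where detected means a deposited detection p under 0.05. Precision is limited by having 3 arrays a group. In liver WT array 1 lay on another slide from the other 5 arrays, and in MEFs position on the slide and genotype cannot be told apart (KO at D to F, WT at A to C).

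In fasted liver the signal of each of the 4 genes was lower on all 3 KO arrays than on all 3 WT arrays. Only the fall of Acot3 passed the test, an 8.42-fold lower normalized level in KO than in WT. Angptl4, Acsl1 and Cyp4a10 differed by 0.59 to 0.71 on the log2 scale and missed the threshold, which was a Benjamini-Hochberg adjusted p under 0.05 in limma over all 12573 probes tested. Of those probes 4.69% were called in either direction, 2.73% as lower and 1.96% as higher in KO, and 14.8% had lower KO values with no overlap. The balance of these calls depended on the scaling, with 343 lower and 247 higher in the main setting, 166 and 588 with median centring, 266 and 307 with the alternative background and 183 and 189 with the authors' values. The 5 member probes were all detected on all 6 liver arrays.

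Angptl4 had raw signals of 1927.5, 2747.2 and 2261 in KO livers, against 2957.1, 3519.2 and 3408.9 in WT livers. The highest KO liver lay below the lowest WT liver, though close to it. On the normalized log2 scale, used for every difference below, the KO level was 11.02 ± 0.24 and the WT level 11.61 ± 0.14 (SD, n = 3 each). The difference was -0.59 ± 0.14 (KO minus WT, SE, 95% interval -0.94 to -0.24), and limma's adjusted p of 0.0790 did not pass.

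Acsl1 had raw signals of 1412.2, 1598.7 and 1539.7 in KO livers, against 2306.7, 2610.2 and 1965.6 in WT livers. The KO livers lay close together and the WT livers were spread more widely, with no overlap. The level was 10.35 ± 0.09 in KO and 11.06 ± 0.29 in WT, a difference of -0.71 ± 0.15 with an interval of -1.08 to -0.34. Limma's adjusted p was 0.0626.

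Cyp4a10 was among the brighter transcripts of these livers, with 20430.2, 36465.8 and 32321.1 on its brighter probe in KO and 40818.3, 50423 and 48287.7 in WT, where the brightest probe of a liver array read 58076.5 to 65651.8. Its second probe read 4772.1, 10316.9 and 9518.4 in KO livers, against 11894.3, 17945.9 and 16281.9 in WT livers. Both probes ordered the 6 livers alike, with KO liver 1 far below the other KO livers. The brighter probe differed by -0.64 ± 0.18 (limma, adjusted p = 0.108) and the second by -0.91 ± 0.34 (limma, adjusted p = 0.192). Without KO liver 1 the values were -0.43 ± 0.08 (limma, adjusted p = 0.0367, called) and -0.55 ± 0.16 (limma, adjusted p = 0.111). Close relatives of Cyp4a10 in the same gene cluster share much of its sequence, and whether the probes also read them was not tested.

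Acot3 had raw signals of 160.1, 187.3 and 170.6 in KO livers, against 1242.2, 742.8 and 1364.9 in WT livers. The KO livers lay near background, though detected, and even the dimmest WT liver was far above them. The level was 6.78 ± 0.04 in KO and 9.85 ± 0.51 in WT, and Acot3 fell by 3.07 ± 0.25 (interval -3.69 to -2.46). Limma's adjusted p was 0.00726 (unadjusted 2.48e-05), at rank 43 of the 12573 probes. The size varied with how background was handled, between -2.62 ± 0.18 with no background correction and -4.68 ± 0.31 with the authors' normalized values. Acot3 has close relatives beside it in the genome (Acot1, Acot2, Acot4 and others), and the probe's own sequence was not used here.

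**Figure D1:**
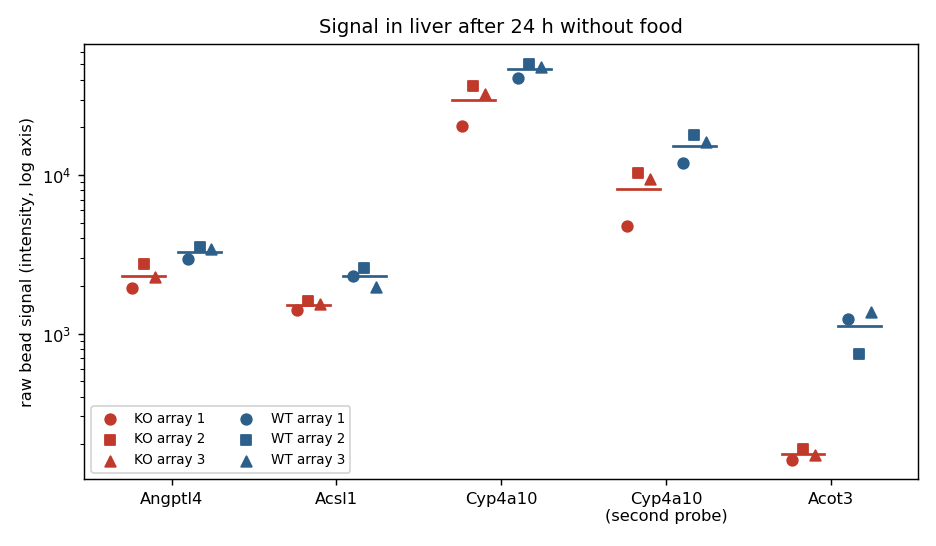
Raw bead signal (log axis) of the 5 probes on the 3 KO (red, left) and 3 WT (blue, right) liver arrays, with bars at the mean of 3. For each probe all KO points lie below all WT points, and the gap is widest for Acot3, at 160.1 to 187.3 in KO against 742.8 to 1364.9 in WT.

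The 4 genes did not follow 1 order across the livers. KO liver 1 was the lowest liver for each member. Among WT livers, array 2 was the highest for Angptl4, Acsl1 and Cyp4a10 and the lowest for Acot3. The error from beads within an array was 2.05% to 6.57% of the signal over the 5 probes in liver, read from 29 to 60 beads. Between arrays the coefficient of variation was 6.28% to 36.5% in KO and 9.04% to 29.5% in WT, so the spread between samples was mostly larger than the bead error.

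Without WT liver 1, which leaves only arrays of 1 slide, the differences were -0.65 for Angptl4, -0.68 for Acsl1, -0.72 for Cyp4a10 and -2.95 for Acot3. Limma's adjusted p was then 0.122, 0.144, 0.169 and 0.0316. With slide as a block they were -0.65, -0.68, -0.70 and -2.93, and limma's adjusted p was 0.125, 0.147, 0.174 and 0.0308. Acot3 was called both ways and the other members neither way. Within the shared slide position and genotype cannot be told apart, so neither fit separates them.

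Transcripts of red blood cells moved with genotype in these livers. Hba-a1, an alpha globin gene, read 14555, 5193.9 and 3730.1 in KO livers, against 32121.9, 17930.7 and 19632.1 in WT livers. Hbb-b1, a beta globin gene, read 1529, 622.3 and 579.7 in KO livers, against 2293.8, 2310.2 and 2308.2 in WT livers. The 2 measured erythroid markers summed to 4310 to 16084 in KO and 20241 to 34416 in WT, without overlap. Neither passed the test (limma, adjusted p = 0.153 and 0.100), but both were called without KO liver 1 (median difference -2.41) and 1 of them with no background correction. KO liver 1 had the highest globin signal of the KO livers and the lowest signal of each member. Their part in the member results was not tested. In bulk tissue, fewer cells of a type and less RNA per cell cannot be told apart.

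**Figure D2:**
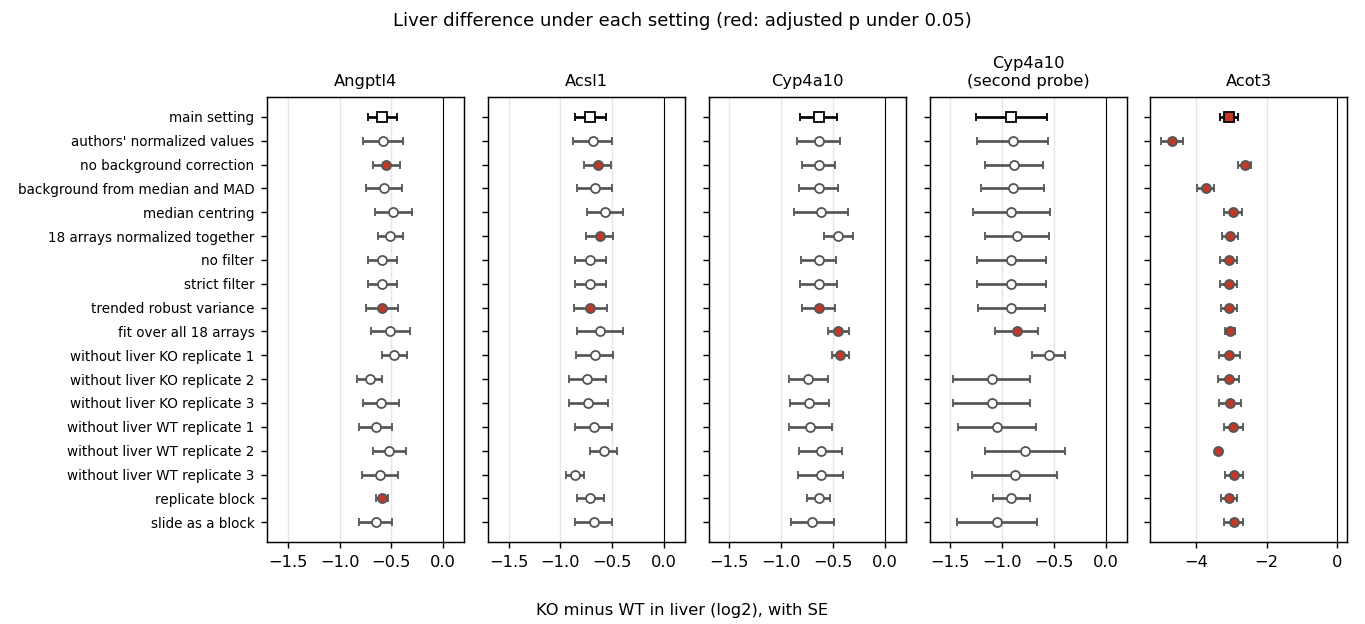
Difference between KO and WT liver (log2, with SE) of each member probe under the main setting (squares) and 17 alternatives (circles), red where limma's adjusted p was under 0.05. Every value is negative, Acot3 is red throughout (-4.68 to -2.62), and Angptl4, Acsl1 and the brighter Cyp4a10 probe are each red in 3 of 17 alternatives.

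The rest of the fasting programme was read from 9 lists of genes around PPAR-alpha, also chosen with earlier results of these data known. They named 146 further genes, of which 55 had a named probe and 39 were tested in liver. Of these, 2 were called lower in KO and 2 higher, where 2.73% and 1.96% of all tested probes were. The median difference of the list genes was -0.15, against 0.00 over all tested probes. There were 27 negative and 12 positive differences, and 52.0% of all probes tested were negative. With median centring in place of quantile normalization, the counts were 22 negative and 15 positive with a median of -0.03, while the median of all probes was 0.06. The number called ranged from 0 (without WT liver 3) to 8 (no background correction).

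Crat, encoding carnitine acetyltransferase, which moves short acyl groups between coenzyme A and carnitine, fell by 0.83 ± 0.10 in KO liver (limma, adjusted p = 0.0179). It read 247.6 to 310.3 in KO and 385.4 to 472 in WT. Hadhb, the beta subunit of the mitochondrial trifunctional protein of beta-oxidation, fell by 0.53 ± 0.05 (limma, adjusted p = 0.00948), with signals of 6203.9 to 6665.7 in KO and 8984.4 to 9613.4 in WT. Over 10 other scalings and left-out arrays, each of these 2 was called in 7. Crat was not called without KO liver 3, WT liver 2 or WT liver 3 (adjusted p = 0.0618, 0.0548 and 0.0617 in limma), and Hadhb not with the authors' values, the alternative background or without WT liver 3 (0.107, 0.0590 and 0.0504).

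All 10 tested genes of peroxisomal beta-oxidation had a negative difference in liver, as had 52.0% of all tested probes. The median of the 10 genes was -0.37. Of them 1, Crat, was called, where 4.69% of all tested probes were called in either direction. The others included Scp2, which encodes a sterol carrier and peroxisomal thiolase (-1.11 ± 0.21, limma's adjusted p = 0.050, just short of the threshold, and called in 4 of 10 other settings), with further Scp2 probes at -1.30 and -0.01 (limma, adjusted p = 0.0603 and 0.974). Abcd3, the peroxisomal transporter PMP70, was at -0.76 ± 0.19 (limma, adjusted p = 0.0913). Acaa1a, a peroxisomal thiolase, was at -0.33 ± 0.07 (limma, adjusted p = 0.0654), and Pex11a, a PPAR-alpha target in peroxisome division, at -0.41 ± 0.23 (limma, adjusted p = 0.375). The 10 differences kept their sign with the authors' values, both other backgrounds and 5 of 6 left-out arrays. There were 9 negative with median centring and 9 negative without KO liver 1.

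Mitochondrial genes were thinly covered, with 3 of 15 tested. Besides Hadhb these included Bdh1, the enzyme that interconverts the 2 main ketone bodies, at 1897 to 2738.1 in KO and 3655 to 4140.2 in WT. Its difference of -0.82 ± 0.16 missed the threshold (limma, adjusted p = 0.0514) and was called in 3 of 10 other settings.

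Relatives of the 4 genes were measured in part, and 1 was called. Acsl4, an acyl-CoA synthetase that prefers arachidonic acid, rose by 0.57 ± 0.09 in KO liver (limma, adjusted p = 0.0299), with 794.9 to 829 in KO and 525.5 to 603.1 in WT. Its dim second probe was not tested and differed by 0.02, and the brighter one was called in 4 of 10 other settings. Acsl3 was not detected in liver. Cyp4a12b, a relative of Cyp4a10, differed by -0.78 ± 0.34 and Cyp4a12a by -0.18 ± 0.23 (limma, adjusted p = 0.253 and 0.741). Of the other microsomal genes that act on the omega end, Cyp4f14 was at 0.78 ± 0.32 and Por, the reductase that supplies P450 enzymes with electrons, at 0.57 ± 0.27, neither past the threshold (0.233 and 0.298 in limma). Acot1, Acot2 and Acot11 were not detected on any liver array, so Acot3 was the only measured thioesterase of the list above background.

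The receptor side was measured in part, with 11 of 18 listed genes having a named probe and 5 of them tested. Ppara, the gene of PPAR-alpha itself, had no named probe, and neither had Pparg. Ppard was detected on no liver array. Ppargc1b, encoding the coactivator PGC-1 beta, rose by 0.28 ± 0.04 in KO liver (limma, adjusted p = 0.0337), at 273.9 to 294.6 in KO and 190 to 217.9 in WT, and was called in 3 of 10 other settings. None of the other 4 tested genes for partners and coregulators (Rxra, Rxrb, Ncoa1 and Ncor1) was called, and no PPAR gene was tested. In the lipoprotein lipase system, Lpl itself differed by 0.87 ± 0.51 with overlapping groups (259 to 717.1 in KO and 273.9 to 318 in WT). Apoc3, a lipase inhibitor of lipoproteins, differed by -0.12 ± 0.05, and neither passed (limma, adjusted p = 0.394 and 0.277).

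**Figure D3:**
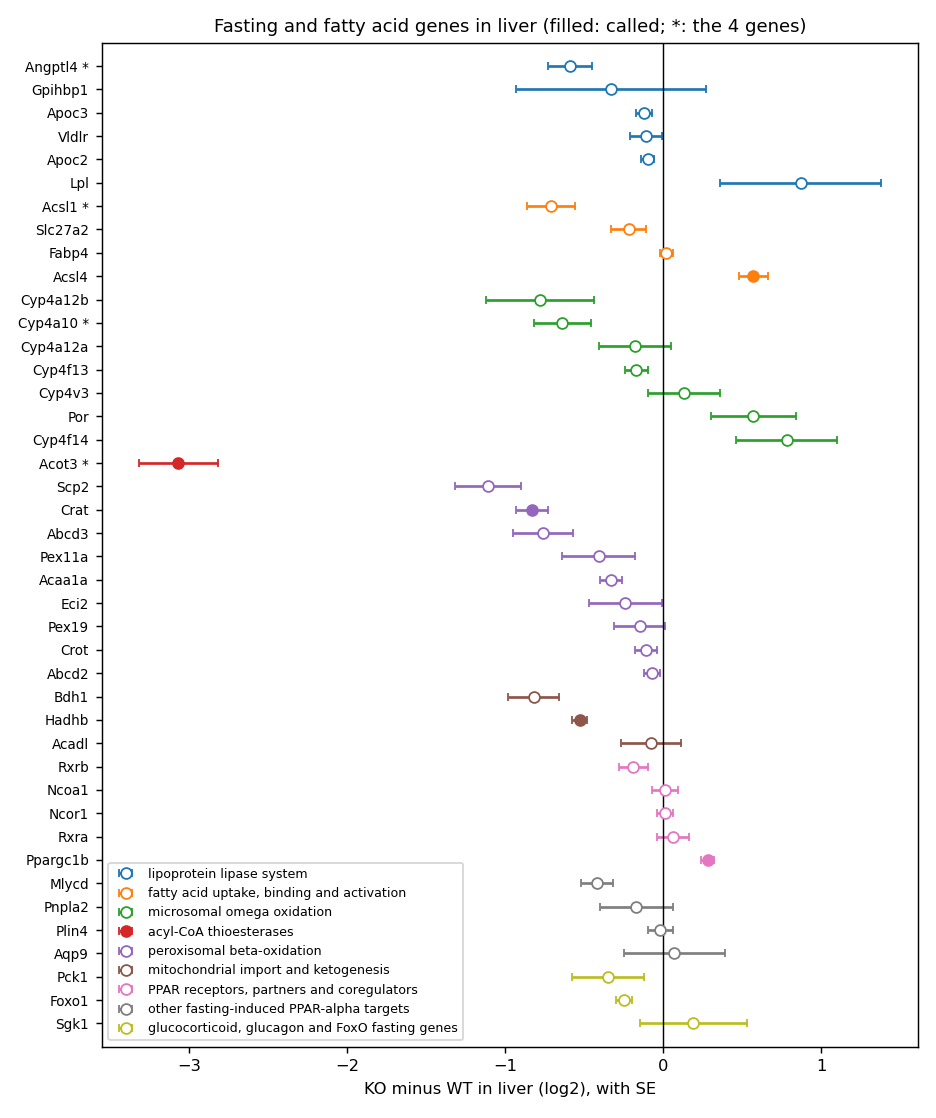
Difference between KO and WT liver (log2, with SE) for the 4 genes (starred) and other tested genes of the 9 lists, coloured by list and filled where called. Acot3 lies at -3.07, beyond every other gene, the peroxisomal genes shown all lie below 0, and Acsl4 and Ppargc1b are the filled points above 0.

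In adipose tissue Angptl4 and Acsl1 were bright and neither differed between genotypes beyond the spread of the arrays. Cyp4a10 and Acot3 were at or near background. Of 15967 probes tested, 0.407% were called, and 0 of the 2 members tested were.

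Angptl4 had 22108.7, 16861.1 and 15508.3 in KO adipose tissue, against 10264.3, 15281.3 and 19949.3 in WT adipose tissue. The groups overlapped, with the highest raw signal in KO and the lowest in WT. On the normalized scale the highest was also in WT (14.33 on array 4, against at most 14.23 in KO). The difference was 0.31 ± 0.25 with an interval of -0.33 to 0.95 (limma, adjusted p = 0.678, unadjusted 0.273). Without WT array 4 it was 0.58 ± 0.13 (limma, adjusted p = 0.214), and without WT array 1 it was 0.16 ± 0.27, so the size rests on single arrays.

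Acsl1 had 9666.9, 15312.3 and 15903.4 in KO adipose tissue, against 15262.5, 24474.5 and 17645.1 in WT adipose tissue. In raw signal KO array 2 lay apart at the low end, and the other KO arrays overlapped the WT range. On the normalized scale only KO array 5 did (14.21, against 14.12 to 14.25 in WT). The difference was -0.51 ± 0.31 with an interval of -1.28 to 0.26 (limma, adjusted p = 0.556, unadjusted 0.153). Without KO array 2 it was -0.19 ± 0.16. Fibroblast and macrophage markers varied widely in adipose tissue, the 4 measured fibroblast markers summing to 31498 to 79729 in KO and 17160 to 44463 in WT and the 4 macrophage markers to 6010 to 17842 in KO and 3199 to 10937 in WT. Both sums overlapped between genotypes, and their part in the Angptl4 and Acsl1 values was not tested.

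Cyp4a10 read 223.7, 181.9 and 238.6 in KO adipose tissue, against 160.4, 190.2 and 175.8 in WT adipose tissue. It was detected on 2 KO arrays and no WT array, too few to be tested, and its second probe was detected on none. Acot3 read 185.8, 151.6 and 184.4 in KO and 160.5, 200.7 and 164.6 in WT, not well above background on any of the 6 arrays. Of the 39 list genes tested in adipose tissue, limma called 0 (5 lower and 2 higher had an unadjusted p under 0.05, and 13.2% of all probes did), and their median difference was -0.07.

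In MEFs only Angptl4 stood clear of background on every array. It read 275.2, 432.3 and 421 in KO MEFs, against 305.3, 290.6 and 279.1 in WT MEFs. In raw signal KO arrays 2 and 3 were the highest and KO array 1 the lowest of all. On the normalized scale KO array 1 (7.48) lay within the WT range (7.37 to 7.49). The difference was 0.29 ± 0.12 with an interval of -0.01 to 0.59 (limma, adjusted p = 0.485, unadjusted 0.0582). It was 0.62 ± 0.26 with the authors' values, 0.54 ± 0.21 with the alternative background, 0.43 without KO array 1 and 0.19 without KO array 2, and limma called it in none of these (adjusted p = 0.432, 0.355, 0.187 and 0.733).

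Acsl1 read 124.3, 151.6 and 138.7 in KO MEFs, against 143.7, 157.2 and 161.8 in WT MEFs, and was detected on 2 arrays of each genotype. The difference of -0.02 ± 0.03 (limma, adjusted p = 0.890, unadjusted 0.522) was compressed by the closeness to background, and it was -0.37 ± 0.35 with the authors' values. Acot3 was detected on no MEF array, at 88.5 to 108.6 in KO and 103.2 to 131.1 in WT. The brighter Cyp4a10 probe was also detected on none, and the second on 1 of each genotype. Of 14048 probes tested in MEFs, 0.448% were called, and 0 of the 2 members tested were. Whether equal replicate numbers pair the MEF samples is not settled, as described with the processing. With the number as a block, 9 MEF probes were called in place of 63, and the 2 members stayed uncalled (Angptl4 0.29 ± 0.11, limma's adjusted p = 0.452). Among the 31 list genes tested in MEFs limma called 0 (2 lower and 2 higher had an unadjusted p under 0.05, and 10.7% of all probes did), with a median of -0.01.

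Whether the knockout difference of a member itself varied between tissues was tested in a single fit over all 18 arrays, normalized together, where 4.49% of 19060 probes passed for liver minus adipose tissue and 4.01% for liver minus MEFs. Neither contrast passed for the members measured in all 3 settings. The contrasts with adipose tissue and with MEFs were -0.83 and -0.81 for Angptl4 (limma, adjusted p = 0.118 and 0.137). For Acsl1 they were -0.09 ± 0.31 and -0.60 ± 0.31 (limma, adjusted p = 0.943 and 0.361), and in MEFs Acsl1 was itself close to background. For Acot3 and Cyp4a10 such a contrast is not read as a result. Acot3 was detected on no adipose or MEF array and Cyp4a10 on few, so whether their knockout difference varied between tissues could not be tested.

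The level of each member by tissue was compared in the same fit among WT samples, where 56.7% of probes passed between liver and adipose tissue, 56.3% between liver and MEFs and 59.3% between adipose tissue and MEFs. Time without food differed between liver and adipose tissue and MEFs were cultured, so tissue, fasting time and slide cannot be told apart. Angptl4 was highest in adipose tissue (13.15 ± 0.47, SD, n = 3), then liver (12.19 ± 0.12), then MEFs (7.82 ± 0.07). Acsl1 had the same order, at 13.54 ± 0.07, 11.72 ± 0.25 and 7.41 ± 0.04. The liver minus adipose difference was -0.96 ± 0.19 for Angptl4 and -1.82 ± 0.22 for Acsl1 (limma, adjusted p = 0.000816 and 6.95e-06), and the steps to MEFs passed as well. With the authors' values the liver minus adipose differences were larger, at -2.19 for Angptl4 and -3.10 for Acsl1.

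Cyp4a10 and Acot3 were measured above background in liver, and neither was detected on any WT adipose or WT MEF array by the brighter Cyp4a10 probe and the Acot3 probe. Cyp4a10 was at 15.55 ± 0.05 in WT liver, against 7.29 ± 0.01 in WT adipose tissue and 7.32 ± 0.02 in WT MEFs. Acot3 was at 10.64 ± 0.46 in WT liver, against 7.29 ± 0.02 in WT adipose tissue and 7.30 ± 0.03 in WT MEFs. The adipose and MEF values are only bounds. With the lowest detected signal of each such array as a floor, Cyp4a10 was at least 294.5-fold higher in WT liver than in WT adipose tissue. Against WT MEFs it was at least 290.5-fold higher. Acot3 was at least 9.75-fold and 9.62-fold higher. These floored folds were not tested. Without the floor the differences were 8.27 and 8.23 for Cyp4a10 and 3.35 and 3.34 for Acot3. Both probes entered the fit only through their detection in liver. A p-value for liver against the other tissues would therefore be no support, and none is given. Neither gene stood clear of background in WT adipose tissue or WT MEFs, so the fitted differences between those tissues are not read as a result. In KO the Acot3 level was 7.59 ± 0.06 in liver, against 7.28 ± 0.03 in adipose tissue and 7.27 ± 0.03 in MEFs. Those KO levels were not tested against each other.

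**Figure D4:**
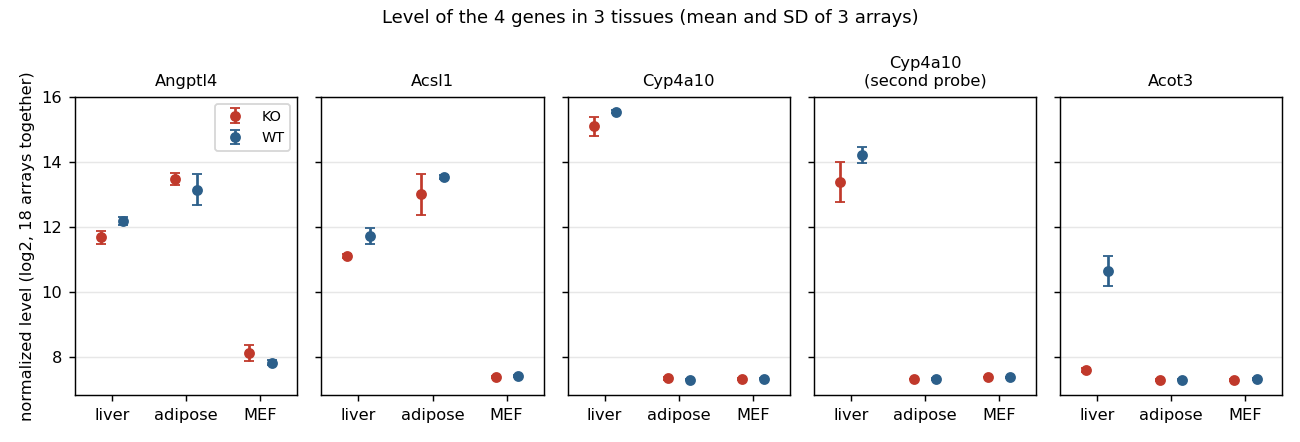
Normalized level (log2, 18 arrays normalized together) of each member probe in liver, adipose tissue and MEFs, mean and SD of 3 KO (red, left) and 3 WT (blue, right) arrays. Angptl4 and Acsl1 peak in adipose tissue, Cyp4a10 and Acot3 lie far higher in liver than elsewhere in WT, and Acot3 in liver shows the one wide gap between genotypes, 7.59 in KO against 10.64 in WT.

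The probes most alike in pattern were ranked by Pearson's r over the 18 arrays, among 5465 named probes. These 18 points share 3 tissues, so r mostly reflects tissue, and it is given as a description. Nearest to Angptl4 were Ctsz, Bcas3 and H2ac19 (r of 0.993, 0.985 and 0.984), and nearest to Acsl1 were H2ac19, Nr1h3 and Etfa (0.996, 0.993 and 0.988). Nearest to Cyp4a10 were Mbl1, Slc27a2 and Slc17a2 (0.9996, 0.9996 and 0.9995), and its second probe was nearest to Slc17a2, Cyp4a12b and Mup2 (0.998, 0.998 and 0.998). None of these 10 genes was called in liver.

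Acot3 was nearest to Mug-ps1 (r = 0.971), Serpina12 (0.966) and Serpina1e (0.963). All 3 were called lower in KO liver, with differences of -0.62, -2.40 and -5.58 (limma, adjusted p = 0.0152, 0.00671 and 0.00150). In adipose tissue and MEFs their differences lay between -0.04 and 0.08. Likeness was computed over the KO livers too, so the liver difference is part of what ranked them.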

How the data were processed

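Labelled RNA from 18 samples was read on 18 arrays, grouped by tissue and genotype from their titles. The deposited raw values are bead signal intensities that, per the file headers, were exported without normalization, and a detection p-value per probe and array was deposited with them. A second table by the authors holds linear, normalized intensities. Per the submitters' processing notes, the tools included limma, lumi, affy and RMA, with no roles given. Other information deposited by the authors gives each array's slide and position.

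Of 45992 probes, 75 controls were left out. Numbers of at least 5 digits inside probe names were mouse gene IDs in 81.1% of cases, against 40.9% to 45.9% when shifted, and a RefSeq table of GRCm38.p6 supplied the names. In R 4.3.3, limma 3.58.1 (neqc, offset 16) corrected the background, quantile normalized the 6 arrays of a tissue and took log2. In raw units the fitted background SD was 112.4 to 507.0, far above the median absolute deviation of the same controls (11.7 to 23.0), so differences of dim probes are compressed. Tests covered probes whose detection p was under 0.05 on 3 or more of 6 arrays. They were two-sided, with lmFit and eBayes, and all adjusted p-values are limma's with Benjamini-Hochberg adjustment over all tested probes. Tissues were compared in 1 limma fit over 18 arrays normalized together. The scripts were tested on simulated data.

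The exported bead spread fell with bead number as a standard error does (slopes of -0.59 to -0.38 on log scales), and it was used as one. Deviations of samples with the same replicate number correlated at 0.101, 0.227 and 0.238 in MEFs and at 0.227, 0.234 and -0.103 in liver. Samples with unequal numbers were not compared, so whether the number pairs samples in either setting is not settled. A block by number is given only as an alternative. Named genes are the members, list genes called in a tissue or, in liver, differing by at least 0.5 (log2) without overlap, measured relatives of the members, and the 3 nearest probes per member. Other list genes are named for their role, after their values were seen. One list gene is counted but not reported by name here. Where a list gene had several probes, the brightest stands for it. The members and lists were chosen with earlier results of these data known. Alternatives covered background, normalization, filter, variance model, blocks and left-out arrays.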

Additional observations from a re-analysis of the deposited data

How the results depend on the processing

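The signs of the 5 liver differences held under all 17 alternatives, with ranges of -0.71 to -0.47 for Angptl4, -0.86 to -0.57 for Acsl1, -0.74 to -0.43 for Cyp4a10, -1.10 to -0.55 for its second probe and -4.68 to -2.62 for Acot3. Acot3 was called in all of them (limma, adjusted p between 1.50e-08 and 0.0399). The number of members called in liver, 1 in the main setting, was 3 with no background correction, 2 with 18 arrays normalized together, 4 with trended robust variance, 2 in the fit over 18 arrays and 1 to 2 with an array left out. With no background correction Angptl4 (-0.55, limma's adjusted p = 0.0421) and Acsl1 (-0.64, 0.0317) were called, with 18 arrays normalized together Acsl1 (-0.62, 0.0479), and with trended robust variance Angptl4 (-0.59, 0.0485), Acsl1 (-0.71, 0.0307) and Cyp4a10 (-0.64, 0.0431). In the fit over 18 arrays both Cyp4a10 probes were called (-0.45, 0.00974, and -0.86, 0.0221). With an array left out, Angptl4 was between -0.71 and -0.47, Acsl1 between -0.86 and -0.58, Cyp4a10 between -0.74 and -0.43 and its second probe between -1.10 and -0.55, and 1 of these fits called Cyp4a10 (without KO 1, 0.0367). With the replicate number as a block in liver, 2 members (Acot3 and Angptl4, -0.59, limma's adjusted p = 0.0464) and 259 probes were called. Whether the number pairs the liver samples is not settled. The same block changed no member call in MEFs. In adipose tissue only number 2 is shared, so no block was fitted. The cause of these changes was not tested.

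The 590 liver calls became 372 with the authors' values, 357 with no filter, 1361 in the fit over 18 arrays, 292 with slide as a block and 58 to 1052 with an array left out. The 65 adipose calls became 160 with the authors' values, 275 with no background correction, 210 with the alternative background, 43 with median centring, 30 with no filter, 98 with the strict filter, 251 with trended variance, 1028 in the fit over 18 arrays, 31 with slide positions A to C against D to F as a block and 17 to 96 with an array left out. The 63 MEF calls became 249, 165, 20, 36, 238 and 437 with no background correction, the alternative background, median centring, no filter, trended variance and the fit over 18 arrays, 9 with the replicate block and 17 to 62 with an array left out. No member was called in adipose tissue or MEFs under any of 16 alternatives each. The knockout difference in liver minus that in adipose tissue passed for 1 member, Acot3, and for 2 with no background correction (also Cyp4a10, -0.70). With Acot3 detected on no adipose array and Cyp4a10 on 2, these counts cannot show whether the knockout difference varied between tissues. Adipose minus MEF levels in WT turned positive with the authors' values for Cyp4a10 (0.35), its second probe (0.10) and Acot3 (0.73, limma's adjusted p = 0.0440), all near background, where signal limits what can be compared.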
